A study of Mus musculus with 4 samples.

Results

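The genes described here are 9 chaperones, named by symbol among the 17896 genes of the 4 count tables, and all 9 are listed in every table. They are the inducible HSP70 genes Hspa1a and Hspa1b, the constitutive HSP70 gene Hspa8, the HSP40 gene Dnajb1, the HSP90 genes Hsp90aa1 and Hsp90ab1, the small heat shock gene Hspb1, and the mitochondrial pair Hspd1 and Hspe1. They were followed through 5 cell classes of the mouse ventral prostate by single-cell RNA sequencing, in which each transcript molecule is counted once by its unique molecular identifier (UMI). The 4 libraries came from wild-type C57BL6j mice, 2 labelled te2 and 2 labelled sham. Hormone pellets had been placed 2 weeks before the glands were taken. The sources used here do not spell out the code te2, the hormones, what the sham animals received or the age of the animals. The cells are a mixture released in the cold by a bacterial protease, and each library is 1 animal.

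Chaperones bind unfolded or partly folded proteins and release them by cycles of ATP binding and hydrolysis. HSP70 takes its substrates from HSP40 partners and can pass them to HSP90, whose clients include the steroid hormone receptors on which the prostate depends. Small heat shock proteins hold unfolded chains without ATP, and HSPD1 with its lid HSPE1 folds proteins imported into mitochondria. Many of these genes are switched on by the heat shock factor HSF1, which binds inverted repeats of the short word GAA.

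Cells were assigned in a fixed order by the share of their UMIs that came from marker genes, after keeping those with at least 500 UMIs and at most 20% mitochondrial counts. Luminal cells had at least 10% from the secretory genes Sbp and Spink1. Basal cells had at least 0.2% from the keratin genes Krt5, Krt14 and Krt15. Fibroblasts had at least 0.3% from Col1a2, Col3a1 and Dcn, and macrophages at least 0.3% from C1qa, C1qb and C1qc. Proximal cells, the epithelium nearest the urethra, had at least 0.1% from Krt4, Wfdc2 and Cxcl17. Of 11245 cells, 8091 were kept and 6657 were assigned. Sums of further markers that the assignment did not use were highest in the class of that name for basal cells, fibroblasts, macrophages and proximal cells in each of the 4 libraries. Those of the luminal list were highest in proximal cells in each library, so the luminal class rests on Sbp and Spink1.

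The libraries differed in depth and make-up. They held 12259610 and 13134017 UMIs in te2, against 3999690 and 5513275 in sham. Luminal cells numbered 392 and 485 in te2 and 1057 and 1292 in sham, with medians of 8265.5 and 10359 UMIs per cell in te2 and 1551 and 2455 in sham. The other classes held 78 to 636 cells per te2 library and 35 to 237 per sham library, the smallest being the 35 proximal and 44 basal cells of sham replicate 1. Median marker UMIs per cell were 3 and 4 in sham basal cells and 4 and 4 in sham proximal cells. In te2 they were 20 and 31 in basal cells and 13 and 16 in proximal cells. In sham, 12 of 44 and 21 of 160 basal cells held fewer than 3. So did 14 of 35 and 48 of 169 sham proximal cells. In te2 the counts were 18 of 591 and 9 of 573 basal cells and 59 of 636 and 21 of 376 proximal cells. Secretory transcripts outside the luminal class differed too. Sbp and Spink1 made up 0.183% to 0.926% of the UMIs of the 4 other classes in te2 and 1.57% to 4.43% in sham. Both te2 libraries were deeper than both sham libraries, so depth and treatment cannot be told apart. Thinning the counts evened the totals but cannot separate them, since the thinned te2 counts still come from the deeper libraries. Pairs of libraries shared 1 to 5 cell barcodes.

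Upstream sequences are shown for the inducible pair Hspa1a and Hspa1b, for Hspb1 and for Hspe1, on which the results below turn. They are the bases just before the start site from RefSeq on GRCm38.p6, whose promoter table matched 6 of the 9 genes. Hspa8, Hsp90aa1 and Hsp90ab1 are named only. The windows searched ran from 250 bases before to 50 after the start. Capitals mark matches to the inverted repeats GAANNTTC and TTCNNGAA, searched on both strands, and to the longer forms GAANNTTCNNGAA and TTCNNGAANNTTC that overlap them. Hspa1a (chr17:34972157-34972406, minus strand), Hspa1b (chr17:34959239-34959488, minus strand) and Hspb1 (chr5:135887669-135887918, plus strand) are given over 250 bases, and Hspe1 (chr1:55087948-55088147, plus strand) over 200.
Hspa1a: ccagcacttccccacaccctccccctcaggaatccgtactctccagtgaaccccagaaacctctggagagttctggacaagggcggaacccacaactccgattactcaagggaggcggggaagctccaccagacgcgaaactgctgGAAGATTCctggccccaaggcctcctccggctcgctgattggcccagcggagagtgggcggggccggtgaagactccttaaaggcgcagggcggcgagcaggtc
Hspa1b: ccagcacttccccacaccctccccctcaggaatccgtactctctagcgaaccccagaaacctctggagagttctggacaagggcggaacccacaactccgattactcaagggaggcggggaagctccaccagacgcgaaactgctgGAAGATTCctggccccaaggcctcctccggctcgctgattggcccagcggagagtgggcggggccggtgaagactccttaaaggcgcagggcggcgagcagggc
Hspb1: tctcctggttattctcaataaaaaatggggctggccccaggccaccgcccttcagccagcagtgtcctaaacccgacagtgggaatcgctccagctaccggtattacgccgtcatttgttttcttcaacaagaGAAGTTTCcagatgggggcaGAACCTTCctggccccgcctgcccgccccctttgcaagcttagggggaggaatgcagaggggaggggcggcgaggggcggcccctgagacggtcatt
Hspe1: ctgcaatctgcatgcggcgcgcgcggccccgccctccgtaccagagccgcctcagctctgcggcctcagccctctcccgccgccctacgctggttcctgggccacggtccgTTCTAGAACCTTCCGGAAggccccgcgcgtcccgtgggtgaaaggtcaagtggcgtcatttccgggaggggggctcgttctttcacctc

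Hspa1a and Hspa1b are neighbouring copies whose windows differed at 4 of 300 positions, C44T, T47C, T249G and C276T, counted from 1 at the 5′ end with the Hspa1a base first. Each held 1 GAANNTTC beginning 104 bases before the start (position -104). Hspb1 held 2, beginning at -117 and -97. The Hspe1 run of 18 bases beginning at -89 joins both longer forms. Hspd1, on the opposite strand, had 2 windows. The run lies between the Hspe1 start and the Hspd1 start of window 2, which are transcribed away from each other. The Hspe1 window shared 285 bases with the opposite strand of that Hspd1 window and 4 bases with window 1. No match stood in window 1 of Hspd1 or in the windows of Dnajb1, which says only that these letters are absent there. Among 32851 windows of the same length, 7.86% held GAANNTTC, 8.52% held TTCNNGAA and 0.603% held either longer form. A match describes the letters and does not show that a factor binds.

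In luminal cells, which secrete the prostatic fluid, 6 of the 9 chaperones rose in te2 against sham and 0 fell by edgeR's quasi-likelihood test at a false discovery rate (FDR) of 0.05. Of all 10976 genes tested in these cells, 18.0% rose and 14.1% fell, which is 32.1% in either direction. The genes that rose were Hspd1, Hspe1, Hspa8, Hsp90ab1, Hsp90aa1 and Hspa1a. The median log2 change (te2 minus sham) was 0.68 over the 9 chaperones and -0.01 over all genes tested. Levels below are counts per 1000000 of the class's summed UMIs (CPM), scaled by totals alone, and log2 changes come from the test with TMM scaling and carry their standard error. A lower level can reflect fewer expressing cells or less RNA in each, which sums cannot tell apart.

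**Figure D1:**
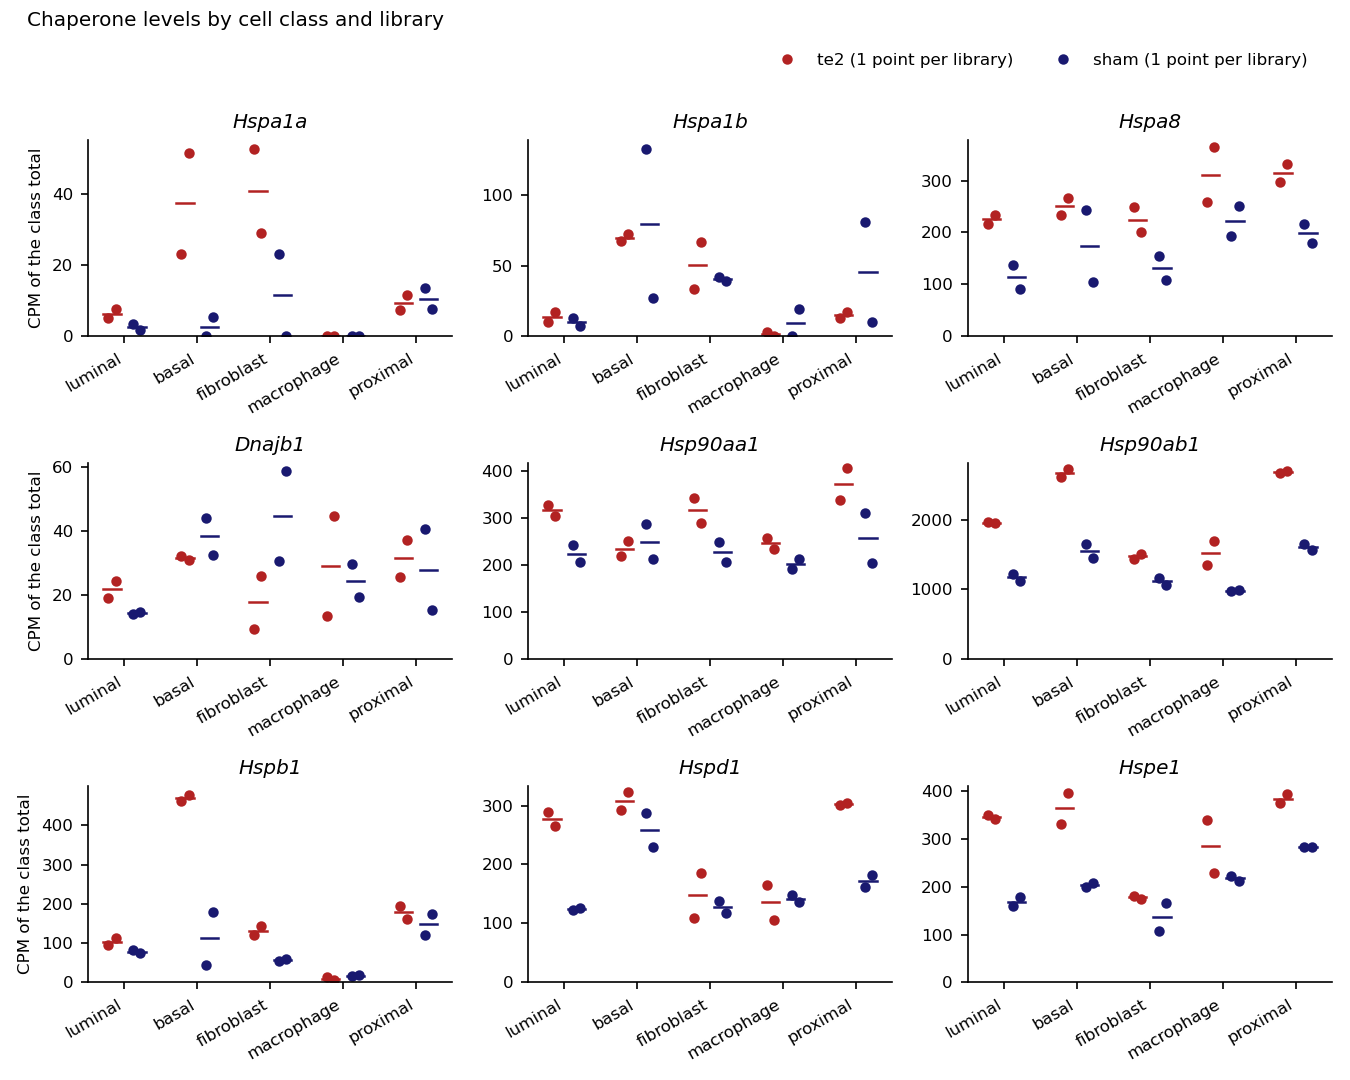
CPM of each chaperone (vertical axes, linear from 0) in the summed UMIs of each cell class, with 1 point per library, te2 in red left of sham in dark blue, and a bar at the mean of 2 libraries. Luminal Hspd1 stood at 289 and 265 CPM in te2, against 122 and 125 in sham, and basal Hspb1 at 463 and 476 in te2, against 44.2 and 180 in sham.

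Of the 9 chaperones, the mitochondrial pair had the smallest p-values in luminal cells. Hspd1, the barrel-forming chaperonin, had 289 and 265 CPM in the te2 libraries, against 122 and 125 CPM in the sham libraries. The groups stood far apart relative to the spread within each, and the log2 change was 1.10 ± 0.12 (adjusted p = 2.2e-05). Hspe1, its lid, had 351 and 343 CPM in te2 and 159 and 180 CPM in sham. Its log2 change was 0.98 ± 0.12 (adjusted p = 6.0e-05). Both te2 libraries were above both sham libraries for each of these genes.

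The cytosolic HSP70 gene Hspa8, which also uncoats clathrin vesicles, had 216 and 234 CPM in te2 luminal cells and 138 and 90.9 CPM in sham luminal cells. It rose by 0.93 ± 0.17 on the log2 scale (adjusted p = 0.00117), although the sham libraries differed by more than the te2 libraries did. Hsp90ab1, the constitutive HSP90, had 1970 and 1943 CPM in te2 and 1222 and 1125 CPM in sham, and rose by 0.68 ± 0.14 (adjusted p = 0.00181). Hsp90aa1, the stress-inducible HSP90, had 330 and 306 CPM in te2 and 243 and 207 CPM in sham. It rose by 0.44 ± 0.13 (adjusted p = 0.0197), a call that was lost without sham replicate 2 (0.32, adjusted p = 0.111), without te2 replicate 1 (0.43) and without te2 replicate 2 (0.46). Hspd1, Hspe1, Hspa8 and Hsp90ab1 kept their call in each of 19 alternative analyses.

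The inducible copies were rare in luminal cells. Hspa1a had 17 and 38 UMIs in te2 and 10 and 7 in sham, or 5.11 and 7.68 CPM in te2 and 3.36 and 1.83 CPM in sham. Its log2 change of 1.32 ± 0.44 passed the test (adjusted p = 0.0348) but not with DESeq2 (adjusted p = 0.237), when the sums were thinned to equal size (0.116), without sham replicate 2 (0.229) or without te2 replicate 2 (0.40). Hspa1b, which encodes a nearly identical protein, had 9.92 and 17.4 CPM in te2 and 13.1 and 7.05 CPM in sham. Those libraries overlapped, and the log2 change of 0.46 ± 0.34 did not pass (adjusted p = 0.327). Dnajb1, the HSP40 that feeds substrates to inducible HSP70, had 19.2 and 24.5 CPM in te2 and 14.1 and 14.6 in sham, a change of 0.57 ± 0.21 that missed the threshold (adjusted p = 0.0573). Hspb1 had 94.1 and 112 CPM in te2 and 81.1 and 75.0 in sham (0.35 ± 0.14, adjusted p = 0.0786). In CPM, 8 of the 9 chaperones had both te2 libraries above both sham libraries in luminal cells, as did 37.3% of all genes tested.

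The luminal calls of Hspd1, Hspe1, Hspa8 and Hsp90ab1 were also present in the following analyses, which cannot separate depth from treatment. With only cells of at least 3000 UMIs, a limit chosen after the data were seen, Hspd1 changed by 1.11 (adjusted p = 3.2e-06), Hspe1 by 0.89, Hspa8 by 0.95 and Hsp90ab1 by 0.69. With sums thinned to equal totals they changed by 1.08, 0.96, 0.91 and 0.68. Before thinning the luminal sums were 3326137 and 4946980 UMIs in te2 and 2972401 and 3827254 in sham. Thinning the sums leaves the UMIs per cell unequal. Leaving out Sbp and Spink1, which made up 25.3% and 29.0% of the luminal UMIs in te2 and 31.5% and 29.4% in sham, gave 1.10, 0.97, 0.92 and 0.68. After each cell was thinned to 500 UMIs, 15.3% and 11.1% of luminal cells held a UMI of Hspd1 in te2, against 6.62% and 6.04% in sham. Without thinning these shares were 78.1% and 80.8% in te2 and 24.6% and 27.5% in sham.

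**Figure D2:**
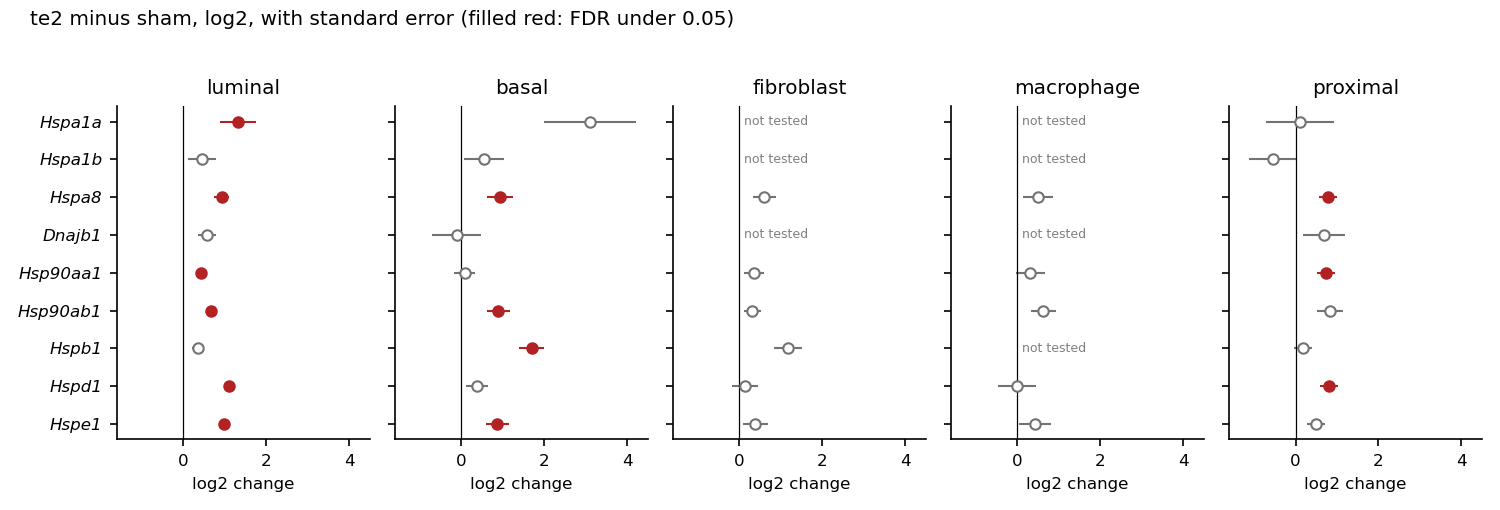
Log2 change of each chaperone, te2 minus sham (horizontal axes), in the 5 cell classes, with bars of 1 standard error; filled red points passed an FDR of 0.05 and open grey points did not. Red points number 6 in luminal, 4 in basal and 3 in proximal cells, with none in fibroblasts or macrophages.

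Other markers moved with treatment in the luminal class. The 7 proximal markers that the assignment did not use summed to 2142 and 2276 CPM in te2 luminal cells and to 292 and 298 CPM in sham luminal cells. The 4 red cell markers summed to 16.2 and 6.06 CPM in te2 and to 1242 and 442 CPM in sham. Immediate early genes can be switched on by tissue dissociation together with Hspa1a and Hspa1b. Summed over 18 genes, they stood at 499 and 520 CPM in te2 and 496 and 364 CPM in sham. Of the 14 tested, 6 rose and 1 fell, where 18.0% of all genes rose and 14.1% fell. The part of these markers in the chaperone changes was not tested.

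In basal cells, which line the epithelium beneath the luminal layer, 4 of the 9 chaperones rose and 0 fell, where 4.94% of 9132 genes rose, 2.77% fell and so 7.71% changed. They were Hspb1, Hsp90ab1, Hspe1 and Hspa8. Hspb1, a small heat shock protein also known to act on actin filaments, had 463 and 476 CPM in te2 basal cells, against 44.2 and 180 CPM in sham basal cells. The te2 libraries were nearly alike and the sham libraries differed widely, the lower value being 2 UMIs in 44 cells. The log2 change was 1.70 ± 0.31 (adjusted p = 0.000145). It passed in each of 17 alternative analyses, with values from 1.39 without sham replicate 1 to 3.75 without sham replicate 2. The median of all genes also moved without sham replicate 2, from 0.09 to 0.65.

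The share of basal cells with Hspb1 differed in the same direction. Thinned to 500 UMIs, 20.6% (exact 95% interval 17.4% to 24.1%) and 20.9% (17.7% to 24.5%) of te2 basal cells held a UMI, against 2.27% (0.0575% to 12.02%) and 5.0% (2.18% to 9.61%) of sham basal cells. Intervals cover counting error within a library only. Without thinning the shares were 57.9% and 65.4% in te2, at medians of 2232 and 2652 UMIs per cell, and 4.55% and 17.5% in sham, at medians of 902.5 and 1029.5. Macrophages, in which Hspb1 was near 0, held it in 0 of 103 and 0 of 78 thinned te2 cells, which allows shares of up to 2.91% and 3.85% if 3 cells are taken as the limit of a count of 0 (exact upper limits 3.52% and 4.62%), and in 1.79% and 1.75% of thinned sham cells. Their medians were 2088 and 1874 UMIs in te2 and 873.5 and 785 in sham. In sham replicate 1 the basal share lay close to the macrophage share, so basal expression and background cannot be told apart there. In sham replicate 2 the thinned shares were 5.0% in basal cells and 1.75% (0.0444% to 9.39%) in macrophages, with overlapping intervals. Without thinning they were 17.5% and 1.75%, at medians of 1029.5 and 785 UMIs per cell.

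**Figure D3:**
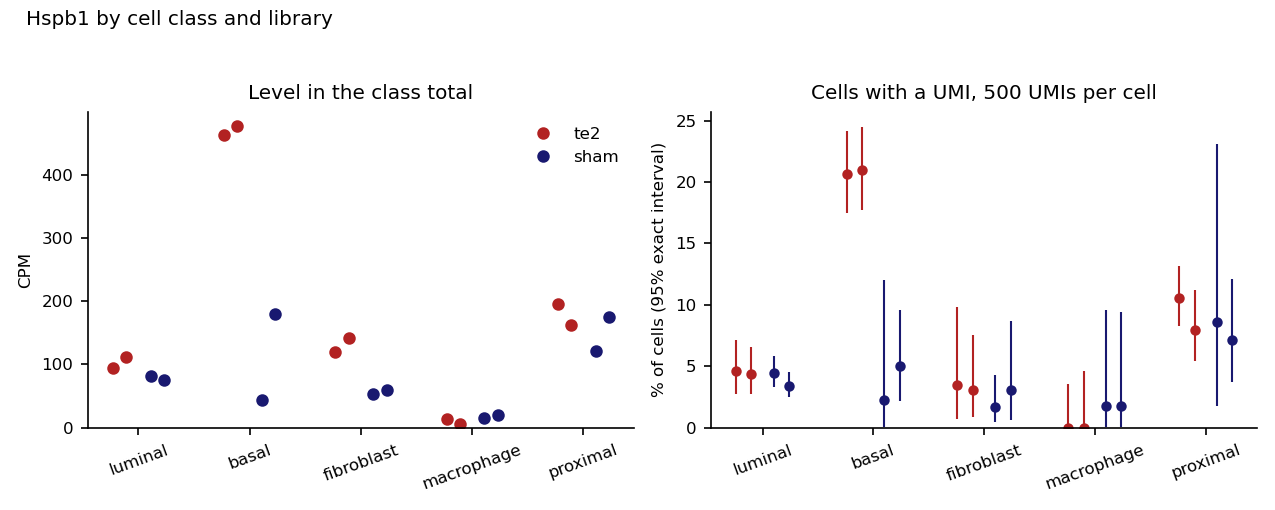
Hspb1 in the 5 cell classes, te2 in red left of sham in dark blue, with 1 point per library; the left panel shows CPM of the class total and the right panel the percent of cells with a UMI after thinning to 500 UMIs, with exact 95% intervals. Basal te2 cells stand at 20.6% and 20.9%, above every other class and library.

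The other basal calls were less stable. Hsp90ab1 had 2615 and 2722 CPM in te2 and 1656 and 1446 CPM in sham, a log2 change of 0.89 ± 0.28 (adjusted p = 0.0350) that was lost without te2 replicate 1 (0.86) or te2 replicate 2 (0.81). Hspe1 had 332 and 397 CPM in te2 and 199 and 207 CPM in sham, a change of 0.87 ± 0.27 (adjusted p = 0.0364) that was lost when any 1 library was left out, at 0.71 to 1.22. Hspa8 had 234 and 267 CPM in te2 and 243 and 104 CPM in sham, so the groups overlapped, and its change of 0.93 ± 0.31 sat at the threshold (adjusted p = 0.0497). It was 0.39 without sham replicate 2 and 0.10 with thinned sums, and it was also lost without te2 replicate 1 (0.91) or te2 replicate 2 (0.73). Thinned sums gave 0.59 for Hspe1, which no longer passed, and 0.63 for Hsp90ab1, which did. With DESeq2, with the replicate block, or without cells past another marker share, Hspb1 was the 1 chaperone of the 9 that passed in basal cells.

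Hspa1a had 36 and 88 UMIs in te2 basal cells and 0 and 1 in sham basal cells. The ratio of summed counts, scaled by the class totals, was 8.71 with an exact 95% interval of 1.53 to 347 that covers counting error only, and the adjusted p was 0.0784. In sham replicate 1 the 0 allows up to 66.2 CPM, which is above both te2 values of 23.3 and 51.6 CPM. Hspa1b had 67.2 and 72.7 CPM in te2 and 132 and 27.3 CPM in sham, with the te2 values inside the sham range (0.55 ± 0.47, adjusted p = 0.549). Hspd1 had 292 and 322 CPM in te2 and 287 and 229 CPM in sham (0.38 ± 0.26, adjusted p = 0.42). Hsp90aa1 and Dnajb1 changed by 0.08 ± 0.26 and -0.11 ± 0.59 without passing the test.

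In CPM, 5 of the 9 chaperones had both te2 libraries above both sham libraries in basal cells, as did 31.3% of all genes tested. Dnajb1 had both te2 libraries below both sham libraries (32.3 and 31.1 CPM against 44.2 and 32.7), on 2 and 6 sham UMIs. The median log2 change in basal cells was 0.87 over the 9 chaperones and 0.09 over all genes tested. The basal class overlapped with others in both groups. Of the te2 basal cells, 251 of 591 and 310 of 573 also passed the marker share of another class, as did 16 of 44 and 37 of 160 of the sham basal cells. Without such cells Hspb1 changed by 1.91 (adjusted p = 0.000222) and Hsp90ab1 by 0.82 (adjusted p = 0.0502). The 7 further proximal markers summed to 1463 and 1560 CPM in te2 basal cells and to 265 and 649 CPM in sham basal cells, and the 7 further fibroblast markers to 21.3 and 61.5 CPM in te2 and 66.2 and 43.7 CPM in sham. Their part in the basal changes was not tested.

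In proximal cells 3 of the 9 chaperones rose and 0 fell, where 5.53% of 10068 genes rose, 4.78% fell and so 10.3% changed. Hspd1 had 301 and 304 CPM in te2, against 162 and 182 CPM in sham, with a log2 change of 0.81 ± 0.22 (adjusted p = 0.00778). Hspa8 had 298 and 333 CPM in te2 and 216 and 180 CPM in sham (0.79 ± 0.22, adjusted p = 0.00937). Hsp90aa1 had 339 and 407 CPM in te2 and 311 and 205 CPM in sham (0.74 ± 0.22, adjusted p = 0.0171). The groups did not overlap for any of the 3, and 5 of the 9 chaperones had both te2 libraries above both sham libraries, as did 29.3% of all genes tested. Each call was lost without sham replicate 2, te2 replicate 1 or te2 replicate 2, at 1.21, 0.84 and 0.84 for Hspd1, 0.85, 0.87 and 0.72 for Hspa8, and 0.56, 0.84 and 0.59 for Hsp90aa1. All 3 calls were also lost with DESeq2 (adjusted p = 0.121, 0.133 and 0.226 for Hspd1, Hspa8 and Hsp90aa1) and with the replicate block (edgeR adjusted p = 0.0541, 0.0689 and 0.123). They were lost too when sums were thinned to equal depth, where Hspd1 stood at 0.62 ± 0.41, Hspa8 at 0.36 ± 0.37 and Hsp90aa1 at 0.45 ± 0.34.

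Of the other proximal values, Hsp90ab1 had 2663 and 2698 CPM in te2 and 1650 and 1561 CPM in sham. Its log2 change of 0.84 ± 0.31 was larger than those that passed, and its adjusted p was 0.0678 with edgeR. It was the 1 chaperone of the 9 that passed with DESeq2 in proximal cells. Hspe1 had 375 and 395 CPM in te2 and 284 and 283 CPM in sham (0.49 ± 0.21, adjusted p = 0.137). Hspb1, in contrast to its basal values, had 195 and 162 CPM in te2 and 122 and 175 CPM in sham, which overlap (0.17 ± 0.22, adjusted p = 0.702). The inducible copies had few sham UMIs, with Hspa1a at 1 and 3 and Hspa1b at 6 and 4. The median over the 9 chaperones was 0.69, beside 0.06 over all genes tested in proximal cells.

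**Figure D4:**
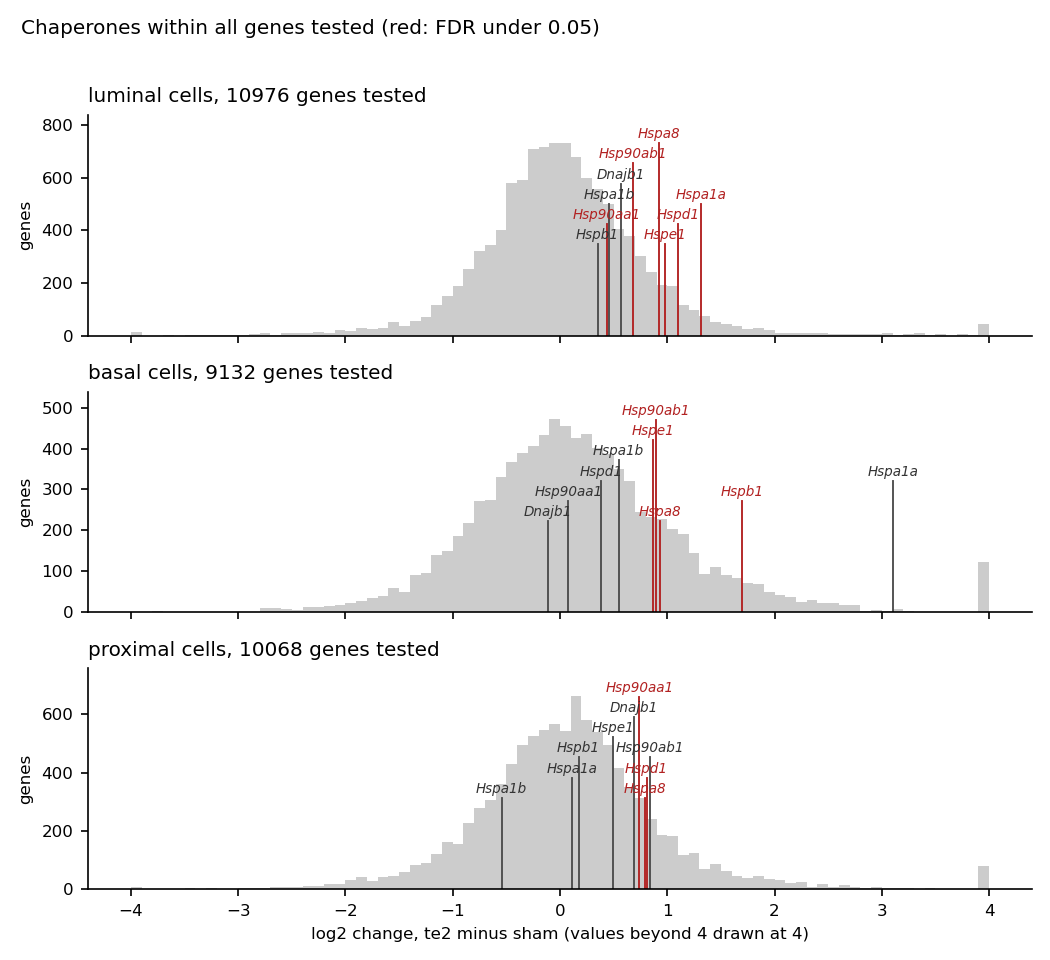
Histograms of the log2 change, te2 minus sham (horizontal axis), of all genes tested in luminal, basal and proximal cells, with the chaperones marked by lines; red lines passed an FDR of 0.05. The chaperone medians are 0.68, 0.87 and 0.69, to the right of the medians of all genes at -0.01, 0.09 and 0.06.

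In fibroblasts 6 chaperones had enough UMIs to be tested and 0 passed with edgeR or DESeq2, where 0.764% of 4450 genes rose, 1.30% fell and so 2.07% changed. At an unadjusted p under 0.05 there was 1, Hspb1. It had 119 and 143 CPM in te2 fibroblasts and 53.8 and 58.9 CPM in sham fibroblasts, a log2 change of 1.17 ± 0.33 (adjusted p = 0.0934). Both te2 libraries stood above both sham libraries, on 25 and 49 UMIs in te2 and 14 and 6 in sham. With every marker share multiplied by 2, 1 fibroblast chaperone passed. Hspa1a had 11 and 10 UMIs in te2 and 6 and 0 in sham, and Hspa1b 7 and 23 in te2 and 11 and 4 in sham. Of the 9 chaperones, 6 had both te2 libraries above both sham libraries in CPM, 1 of them the untested Hspa1a. Of the genes tested in fibroblasts, 29.7% did. Dnajb1, also untested, had both te2 libraries below both sham libraries (9.56 and 26.2 CPM against 30.8 and 58.9). It rested on 2 and 9 UMIs in te2 and 8 and 6 in sham.

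In macrophages 5 chaperones could be tested and 0 passed with edgeR or DESeq2, nor did any at an unadjusted p under 0.05, where 1.93% of 2173 genes rose, 1.75% fell and so 3.68% changed. Hsp90ab1 had the lowest p of the 5, at 1343 and 1688 CPM in te2 and 979 and 988 CPM in sham (0.63 ± 0.31, adjusted p = 0.262). Hspd1 had 165 and 106 CPM in te2 and 148 and 136 CPM in sham, with the sham values inside the te2 range. Hspa1a was at 0 in all 4 libraries, which allows up to 10.1 and 16.8 CPM in te2 and 44.5 and 58.1 CPM in sham. Hspb1 had 4 and 1 UMIs in te2 and 1 and 1 in sham. In CPM, 4 of the 9 chaperones had both te2 libraries above both sham libraries in macrophages, all 4 among the 5 tested, as did 27.8% of the genes tested. Hspb1, on its few UMIs, had both te2 libraries below both sham libraries (13.4 and 5.61 CPM against 14.8 and 19.4). The smallest macrophage sum held 51642 UMIs.

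Whether a change differed between classes was tested in 1 model over the 20 class sums, with the library as a block. Hspb1 was the only chaperone to pass, in 1 contrast. Its change in basal cells exceeded that in luminal cells by 1.42 ± 0.32 on the log2 scale (adjusted p = 0.0060), where 1.30% of 8803 genes differed in either direction. The call was lost without sham replicate 1 (1.001) and without te2 replicate 1 (1.36), and the value was 3.60 without sham replicate 2 and 1.64 without te2 replicate 2. The median of all genes in this basal contrast was 0.20, and it was 0.73 without sham replicate 2. The change of Hspd1 was below its luminal change in all 4 other classes, by -0.63 ± 0.28 in basal cells, -0.79 ± 0.33 in fibroblasts, -0.82 ± 0.47 in macrophages and -0.16 ± 0.25 in proximal cells. None of these passed, with adjusted p between 0.253 and 0.837. The other contrasts with luminal cells called 0 chaperones, where 2.54% of all genes differed in fibroblasts, 1.22% in macrophages and 4.51% in proximal cells. The calls of Hspd1 in luminal and proximal cells but not elsewhere are therefore not shown to be a difference between classes.

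Levels were also compared between classes, averaged over te2 and sham. The result depended on scaling, since CPM by totals against TMM moved the median of all genes by 0.62 to 0.79 on the log2 scale. Scaled by TMM, the level differed from that in luminal cells for 6 chaperones in basal cells, 8 in fibroblasts, 4 in macrophages and 2 in proximal cells. Of these, 4, 6, 4 and 2 were lower than in luminal cells, in the same order. Scaled by totals, 0, 1, 1 and 0 were lower. By TMM, the shares of all 8803 genes that differed in either direction were 42.2%, 51.7%, 44.6% and 23.5% in the same order of classes. Hspa1b was higher by TMM in basal cells than in luminal cells by 1.67 ± 0.35 and in fibroblasts by 1.25 ± 0.32, and Hspa1a was higher in fibroblasts by 1.87 ± 0.54. These 3 passed under both scalings, with 2.49, 1.88 and 2.49 by totals. Lower than in luminal cells under both scalings were Hspe1 in fibroblasts (-1.29 ± 0.15, and -0.66 by totals) and Hsp90ab1 in macrophages (-0.97 ± 0.14, and -0.30 by totals). Among the 8803 genes, 18.2% were higher by TMM in basal cells than in luminal cells and 24.2% in fibroblasts. The rest of the 42.2% and 51.7% that differed were lower. Hspb1 was higher in basal than in luminal cells by 0.78 ± 0.18 (1.58 by totals), but it stood at -0.31 without sham replicate 2. In CPM, Hspb1 ran from 5.61 to 19.4 in macrophages up to 463 and 476 in te2 basal cells. In fibroblasts Hspb1 stood at -0.66 against luminal cells by TMM and at -0.03 by totals, and in proximal cells at 0.28 and 0.94. The sign of the level difference from luminal cells differed between the scalings for 4 chaperones in basal cells, 2 in fibroblasts, 2 in macrophages and 5 in proximal cells.

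The chaperones varied together only in part over the 20 class sums, which share libraries, depth and composition. Pearson's r of log2 CPM was 0.80 for Hspd1 with Hsp90ab1, 0.79 for Hspa1a with Hspb1, 0.70 for Hspd1 with Hspe1 and 0.54 for Hspa1a with its neighbouring copy Hspa1b. Dnajb1 had an r between -0.17 and 0.24 with each of the other 8. Among 3963 well-measured genes outside the 9, the profile of Hspd1 was most like that of Cct2, a subunit of the cytosolic chaperonin, at r = 0.91, followed by Fam162a at 0.86 and Ier2 at 0.85. The profile of Hspa1a plus Hspa1b was most like Tshz2 at 0.94, Bmpr1a at 0.92 and Tjp1 at 0.91.

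The wider chaperone network was followed in 6 lists of 75 genes. In luminal cells 27 of 71 tested rose and 5 fell, where 18.0% of all genes rose and 14.1% fell. In basal cells 6 of 69 rose and 0 fell, where 4.94% of all genes rose, and in proximal cells 13 of 70 rose and 0 fell, where 5.53% of all genes rose. The counts of each list below stand against these same shares. In fibroblasts and macrophages 0 of 49 and 0 of 31 passed. The median log2 changes of these genes were 0.35, 0.33 and 0.15 in luminal, basal and proximal cells, beside -0.01, 0.09 and 0.06 over all genes tested. The cytosolic chaperonin, a ring of related subunits that folds actin and tubulin, and its feeder prefoldin gave 10 of 14 genes higher in luminal cells and 7 of 14 in proximal cells. Examples from luminal cells are Cct3 (1.02 ± 0.14), Cct8 (0.93 ± 0.14) and Cct6a (0.80 ± 0.13), and from proximal cells Cct8 (1.12 ± 0.28), Tcp1 (0.91 ± 0.25) and Cct7 (0.97 ± 0.27). In basal cells 2 of 14 rose, Cct5 (1.07 ± 0.31) and Pfdn2 (1.45 ± 0.43).

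HSP70 partners gave 8 of 20 higher and 2 lower in luminal cells, where 18.0% of all genes rose and 14.1% fell. The list was not limited to the cytosol, and its Dnajb11, Dnajb9 and Dnajc3 belong to the endoplasmic reticulum. Hspa4, a nucleotide exchange factor of HSP70, had 150 and 159 CPM in te2 and 59.2 and 59.3 CPM in sham (1.33 ± 0.13), and Dnajb11 (1.07 ± 0.14) and Dnajc8 (0.91 ± 0.14) followed. In proximal cells 5 of 20 rose, led by Hspa4 (1.29 ± 0.26), Dnaja2 (1.09 ± 0.24) and Dnajc3 (1.06 ± 0.23), and Dnajc3 was the 1 of 19 that rose in basal cells (0.98 ± 0.30). Of 12 HSP90 co-chaperones, 4 rose in luminal cells, led by Cacybp (1.50 ± 0.16), Ahsa1, which stimulates the ATPase of HSP90 (1.15 ± 0.14), and Fkbp5 (0.84 ± 0.18). Cacybp was the 1 that rose in basal cells (1.50 ± 0.37). Fkbp5, a co-chaperone of steroid receptors and a known androgen-responsive gene, was the 1 that rose in proximal cells, at 826 and 828 CPM in te2 and 270 and 175 CPM in sham (2.12 ± 0.26, adjusted p = 4.5e-10).

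Among mitochondrial chaperones and proteases, 4 of 14 passed the test in luminal cells, where 32.1% of all genes did, and the list's median log2 change was 0.25 beside -0.01. In these cells 2 rose, with Grpel1, the exchange factor of mitochondrial HSP70, at 1.09 ± 0.13, and 2 fell, Dnajc19 (-0.63 ± 0.13) and the protease gene Yme1l1 (-0.64 ± 0.13). In basal cells Clpx (1.80 ± 0.57) and Grpel1 (1.06 ± 0.34) rose, and in proximal cells 0 of 14 passed. Of 9 HSF genes and regulators, 3 rose and 1 fell in luminal cells, beside the same 18.0% and 14.1% of all genes, with Ubqln2 (-0.82 ± 0.15), Stub1 (0.57 ± 0.13) and Bag1 (0.45 ± 0.12) of smallest p. In basal and in proximal cells 0 of the 9 passed. Of the 6 other small heat shock genes, 2 could be tested in luminal cells and 0 passed.

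A list of 12 genes of the endoplasmic reticulum and its stress response was set beside the others for contrast. It holds chaperones and also Ddit3, Xbp1 and Atf4, which are transcription factors. It gave 5 of 12 higher and 1 lower in luminal cells, where 18.0% of all genes rose and 14.1% fell. The 1 that fell was Atf4 (-0.60 ± 0.14). In basal cells 4 of 11 rose and in proximal cells 6 of 12, where 4.94% and 5.53% of all genes rose. Pdia3 (1.08 ± 0.15), Sdf2l1 (0.98 ± 0.16) and Hsp90b1 (0.74 ± 0.16) led in luminal cells, Pdia6 (1.41 ± 0.27), Pdia3 (1.25 ± 0.26) and Hsp90b1 (1.08 ± 0.26) in basal cells, and Calr (1.45 ± 0.24), Sdf2l1 (1.71 ± 0.30) and Hspa5 (1.37 ± 0.26) in proximal cells. In fibroblasts Hspa5 rose (1.25 ± 0.22, adjusted p = 0.0185), while 0 of 10 passed in macrophages. Immediate early genes gave 2 higher and 1 lower of 12 in basal cells and 2 higher of 14 in proximal cells, with Cebpb (1.60 ± 0.37) and Jund (1.15 ± 0.34) higher and Egr1 (-1.69 ± 0.49) lower in basal cells.

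**Figure D5:**
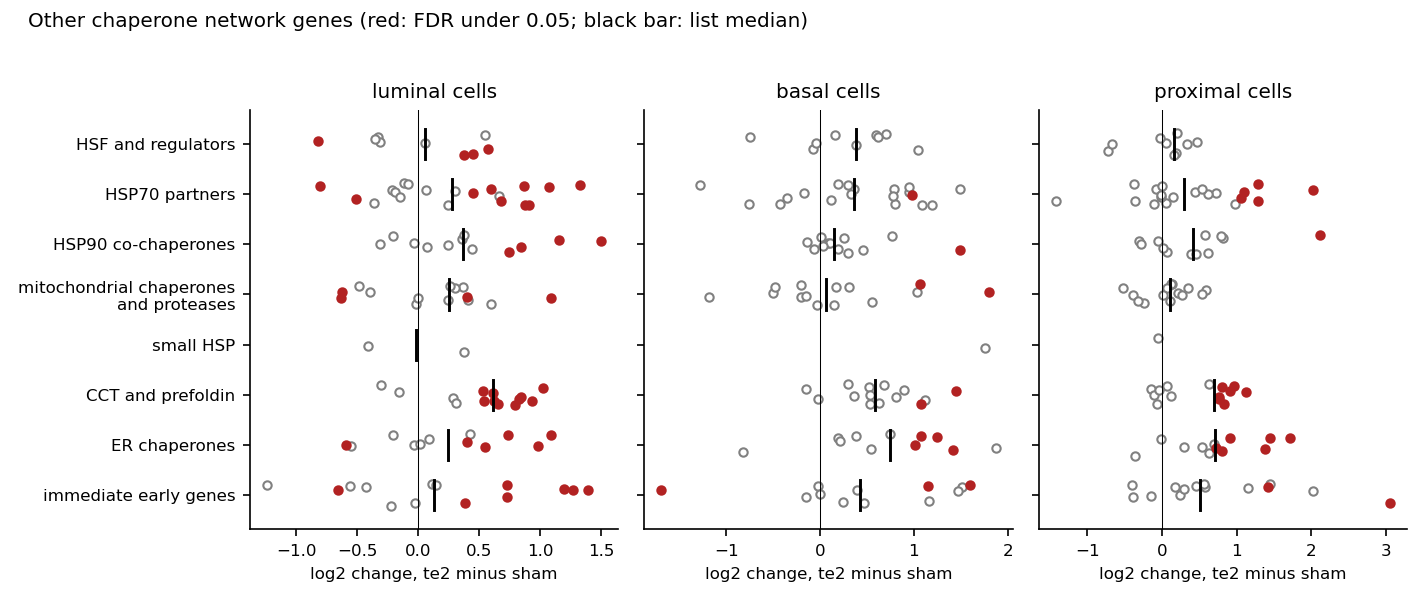
Log2 change, te2 minus sham (horizontal axes, scales differing between panels), of the tested genes of 8 lists in luminal, basal and proximal cells, with 1 point per gene and a black bar at the list median; red points passed an FDR of 0.05. In luminal cells 10 of the 14 cytosolic chaperonin and prefoldin genes are red, all to the right of 0.

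Some of these counts may include reads from other genes. Of the 31-base words in the last 500 bases of the longest coding transcript, where 3′ tags fall, 85.3% of those of Hspa8 also occur in transcripts of other genes, chiefly the pseudogene Gm15459. The share was 68.5% for Hspe1, 27.0% for Hspb1 and 18.7% for Hsp90ab1, and at most 2.15% for the other 5. How the authors assigned reads that match several copies is not given in the sources used here, so the levels of Hspa8 and Hspe1 in particular are uncertain. Hspa1a shared no such word with Hspa1b or with any other gene.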

How the data were processed

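Ventral prostate cells of 4 mice, 2 te2 and 2 sham, were profiled by droplet single-cell RNA sequencing of 3′ transcript ends. The values in the deposited tables are whole UMI counts, not normalized, with genes in rows and cells in columns. The authors used kallisto 0.46.1, bustools 0.39.4, R 4.3.2, Seurat 5.0.1 and the build GRCm39, as listed without roles in the submitters' processing notes. Every listed gene was seen in 3 or more cells of its library, and the cell with fewest genes in each library had 196 to 199. Genes absent from 1 table were set to 0 there. No cell annotation was used here, and classes followed the marker shares given in the report.

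Scrublet, run by scanpy 1.11.5, called 97 of the 8091 kept cells doublets (1.20%). They were kept in the main analysis and left out in an alternative. Counts were summed per class and library, and te2 was compared with sham by edgeR 4.0.16's quasi-likelihood test (two-sided, TMM scaling, filterByExpr at its defaults, p-values adjusted after Benjamini and Hochberg over all genes tested, FDR 0.05). Each class had at least 20 cells in every library. Standard errors are the log2 change over the square root of F. All adjusted p-values come from edgeR except those named as DESeq2 1.42.0. The smallest p an exact permutation test could give for 2 libraries against 2 is 0.333, so the smaller edgeR p-values rest on a spread pooled over genes. Cell counts were thinned at random, and intervals of shares are exact binomial (Clopper-Pearson).

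The 9 genes, the lists and the markers were chosen with earlier results of these data known. The text names the 9 genes and, per further list and class, up to 3 genes of smallest p. Gene likeness used log2(CPM + 1) among genes with a mean of at least 5. Scripts were tested on simulated data with a spread that was set rather than measured. Simulated 2-fold changes were recovered at 43.9% in luminal, 5.43% in basal, 9.89% in fibroblast, 17.9% in macrophage and 5.49% in proximal sums. For 4-fold changes the shares were 93.8%, 52.9%, 77.7%, 82.9% and 70.0% in the same order. A chaperone that did not pass is therefore not shown to be unchanged. Promoter bases are from RefSeq on GRCm38.p6 and shared words from GENCODE M21 transcripts, an earlier build than that of the counts. Alternatives are given in the closing section.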

Additional observations from a re-analysis of the deposited data

Results flagged for a closer look

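The change of Hspb1 differed between basal and luminal cells by a test of the difference itself. It was larger in basal cells by 1.42 on the log2 scale, with basal CPM of 463 and 476 in te2 and 44.2 and 180 in sham, and luminal CPM of 94.1 and 112 in te2 and 81.1 and 75.0 in sham. It rests in part on sham replicate 1, whose 44 basal cells held 2 UMIs of Hspb1. The call was lost without that library (1.001) and without te2 replicate 1 (1.36). Basal te2 cells carried 1463 and 1560 CPM of the further proximal markers and basal sham cells 265 and 649 CPM, and the part of this in the difference was not tested.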

How the results depend on the processing

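The luminal calls of Hspd1, Hspe1, Hspa8 and Hsp90ab1 and the basal call of Hspb1 were present in each alternative run. Genes changed were 3520 in luminal cells (1853 with DESeq2), 704 in basal cells (DESeq2 153, cells past several marker shares left out 346, 414 with shares multiplied by 2, replicate block 442, thinned sums 163), 92 in fibroblasts (at least 1000 UMIs 56, at most 10% mitochondrial 142, no low-count filter 249, thinned 2), 80 in macrophages (34 with DESeq2, no filter 183, block 26, thinned 25) and 1038 in proximal cells (270, block 614, thinned 172). Leaving out 1 library gave 145 to 369 in basal cells, 107 to 211 in fibroblasts, 53 to 154 in macrophages and 234 to 678 in proximal cells. Chaperones changed numbered 4 in basal cells (1, Hspb1, with DESeq2, without mixed cells or with the block, 2 thinned, 1 to 3 without 1 library), 3 in proximal cells (1 with DESeq2, which was Hsp90ab1 and none of the 3, 0 with the block or thinned, 0 to 4 without 1 library) and 0 in fibroblasts (1 with shares multiplied by 2). The replicate numbers are not stated to pair animals. Deviations of same-numbered libraries correlated at -0.0595 to 0.0140, so they were not treated as pairs.

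The basal difference of Hspb1 from luminal cells gave 0 to 1 chaperones called without 1 library. Levels against luminal cells differed for 8 chaperones in fibroblasts (3 by totals, 5 to 8 without 1 library), 4 in macrophages (2 by totals) and 2 in proximal cells (7 by totals; 1 without Sbp and Spink1, at 1000 UMIs, at 3 marker UMIs or unfiltered; 0 to 2 without 1 library). Changes that missed the test turned sign: basal Dnajb1 was -0.11 and became 0.43 at 3 marker UMIs, 0.021 at 10% mitochondrial, 0.14 with shares multiplied by 0.5 and 0.043 unfiltered. Basal Hsp90aa1 was 0.08 and became -0.0090 at 10% mitochondrial, -0.044 without mixed cells, -0.25 with shares multiplied by 2 and -0.64 thinned. Fibroblast Hspd1 became -0.016 at 1000 UMIs, macrophage Hspd1 0.35 unfiltered, proximal Hspb1 -0.34 thinned, and proximal Hspa1a -0.0040 at 1000 UMIs, -0.10 at 3 marker UMIs and -0.13 at 10% mitochondrial. Without 1 library the changes ranged from -0.086 to 0.97 for luminal Hspa1b, -0.57 to 1.36 for basal Hspa1b, -0.085 to 0.16 for basal Hsp90aa1, -0.31 to 0.46 for fibroblast Hspd1, -0.40 to 0.30 for macrophage Hspd1, and in proximal cells -0.24 to 0.26 for Hspa1a, -2.13 to 0.54 for Hspa1b and -0.085 to 1.003 for Dnajb1. Differences from luminal cells in proximal cells ranged from -0.36 to 0.77 for Hspb1 and -0.34 to 0.28 for Hspd1. Levels ranged from -0.31 to 0.99 for basal Hspb1, -0.10 to 0.42 for proximal Hspb1 and -0.26 to 0.58 for proximal Hspa1b. The cause was not tested. Not run, for fewer than 20 cells in a library, were 1000 UMIs in basal cells and macrophages, shares multiplied by 2 in proximal cells, and 3000 UMIs outside luminal cells. The 3-marker and 3000-UMI settings were chosen after seeing the data. The smallest sum of a class in a library was 45286 UMIs, in basal cells of sham replicate 1.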

Other observations

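The 516 and 468 te2 cells and 209 and 241 sham cells that no class took had no test. Their Hspd1 stood at 296 and 317 CPM in te2 and 150 and 169 CPM in sham, and Hsp90ab1 at 2566 and 2691 CPM in te2 and 1585 and 1483 CPM in sham. Hspb1 had 163 and 167 CPM in te2 and 73.5 and 97.6 CPM in sham. Hspa1b had 16.0 and 23.7 CPM in te2, inside the sham values of 35.2 and 5.97 CPM.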
